A study of Homo sapiens with 10 samples.

Results

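The comparison described here, by RNA sequencing, is between senescent IMR90 cells in which METTL3 was lowered and a mutant METTL3 was put back (mutant knock-in) and senescent IMR90 cells in which METTL3 was lowered only (METTL3 knockout). IMR90 is a line of human fetal lung fibroblasts. The 4 samples, 2 of each kind, were chosen by their titles and column names out of 10 samples in all, and all genes were compared. The other 6 samples, 2 each of non-senescent control, senescent control and senescent METTL3 knockout with a wild type METTL3 knock-in, entered the same model and served for reference values. Per the labels, both groups compared were made senescent with a retrovirus carrying RAS, seeded at day 4 after that infection, transfected with siRNA then and again on the following day, and collected 48 hours later. The protocol text, which all samples share, adds a lentivirus carrying the wild type or mutant gene on that following day. The titles speak of a knockout while the protocol speaks of siRNA, and the column names give an siRNA against METTL3, so the word knockout is used below as a name only. The column names of the knockout hold the word vec. The sources used here do not say whether its cells were given a lentivirus with no gene, so the mutant gene and the virus that carried it cannot be told apart. The protocol text names METTL14 and a point mutant of it, while the titles and columns name METTL3. The sources used here give neither the METTL3 mutant nor the RAS gene, and do not say whether replicates were separate cultures. The p-values therefore measure the spread of these particular samples, possibly a technical one.

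METTL3 carries the catalytic site of the enzyme complex that writes N6-methyladenosine, m6A, on messenger RNA, and METTL14 is the partner that holds the RNA. Readers such as the YTHDF and YTHDC proteins bind the mark, and FTO and ALKBH5 remove it. The counts used here measure RNA levels, not the mark. Cells driven into senescence by RAS stop dividing, lose lamin B1 and secrete cytokines, chemokines and proteases, together called the senescence-associated secretory phenotype (SASP), much of it transcribed by NF-kB and C/EBP factors. Heat shock factor, NF-kB, the interferon-activated ISGF3 complex and the repressor complexes of the cell cycle each act through short promoter motifs.

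The results turn on 4 groups of genes that moved together. Promoter stretches are shown for some members that changed and hold the motif searched, so that the sequences behind the names can be seen. They were taken from RefSeq on GRCh38.p14, lie upstream of the annotated start site, run 5′ to 3′ along the gene, and carry in capitals the letters that match the motif searched on either strand. In the windows of the heat shock genes the motif is GAANNTTC, the inverted pair of heat shock element units, which reads the same on both strands. HSPA6 is shown at chr1:161524451-161524498 (plus strand), HSPA1A at chr6:31815417-31815464 (plus strand) and HSPA1B at chr6:31827613-31827660 (plus strand).
HSPA6: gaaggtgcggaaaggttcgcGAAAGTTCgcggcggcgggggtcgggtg
HSPA1A: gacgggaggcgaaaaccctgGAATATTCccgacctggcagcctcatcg
HSPA1B: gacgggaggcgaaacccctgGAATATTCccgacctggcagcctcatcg

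For interferon-stimulated genes the motif was GAANNGAAA, the core of the interferon-stimulated response element, shown for RSAD2 at chr2:6865781-6865829 (plus strand), OAS3 at chr12:112938306-112938354 (plus strand) and HERC5 at chr4:88456986-88457034 (plus strand), the last with the match on the opposite strand.
RSAD2: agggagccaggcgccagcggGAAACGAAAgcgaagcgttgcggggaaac
OAS3: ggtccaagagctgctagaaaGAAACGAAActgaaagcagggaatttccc
HERC5: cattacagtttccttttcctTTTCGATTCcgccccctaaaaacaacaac

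For NF-kB targets the motif was GGNNNTTCC, shown for VCAM1 at chr1:100719660-100719708 (plus strand), ICAM1 at chr19:10270914-10270962 (plus strand) and TNFAIP3 at chr6:137867184-137867232 (plus strand), the last with the match on the opposite strand. For genes of mitosis it was TTTGAA, the cell cycle genes homology region, shown for CDC20 at chr1:43358896-43358941 (plus strand) and GTSE1 at chr22:46296824-46296869 (plus strand), the last with the match on the opposite strand.
VCAM1: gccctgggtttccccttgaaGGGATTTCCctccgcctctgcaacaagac
ICAM1: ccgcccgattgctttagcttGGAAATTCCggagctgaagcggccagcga
TNFAIP3: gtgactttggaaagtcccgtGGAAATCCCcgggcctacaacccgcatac
CDC20: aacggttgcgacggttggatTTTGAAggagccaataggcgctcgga
GTSE1: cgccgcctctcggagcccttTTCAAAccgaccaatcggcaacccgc

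Over the 250 bases before the start site, GAANNTTC was found in 9 of 19 heat shock chaperone promoters (47.4%) and in 5.85% of all 27305 promoters of the table. HSPA1A and HSPA1L, both among the 9, share the same stretch, read on opposite strands. GAANNGAAA was found in 14 of 35 interferon-stimulated promoters (40.0%) and in 6.77% of all. GGNNNTTCC stood in 9 of 17 promoters of NF-kB targets (52.9%) against 17.1% of all, and TTTGAA in 29 of 58 promoters of G2 and M phase genes (50%) against 13.6%. For 2 further groups the letters searched were absent from these windows. TGATGNAAT, the composite motif of ATF4 and C/EBP, was in 0 of 17 ATF4 response promoters and 0.916% of all, and TGANTCA, the AP-1 motif, in 0 of 15 immediate early promoters and 6.6% of all. The gene lists were written from general knowledge of these pathways, so a share above that of all promoters is not a result of the counts. Several of these motifs share the letters GAA or TTC, so a match of one can overlap that of another. A match describes the letters, not a bound site. Matches also lay before genes not called in the comparison, such as HSPA8 and BUB1B, and before KIF15, the single riser of the mitotic list. These promoters are read from another genome build than the counts, which were made on hg19.

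METTL3 (ENSG00000165819) was measured first as a check of the labels. Levels are given as CPM, counts scaled to a common total of all genes but METTL3, after TMM scaling, because METTL3 itself took 11.3% and 14.2% of the mutant knock-in's counts, against 0.00246% and 0.00304% in the knockout. It stood at 24.5 and 30.2 CPM in the knockout and 119897 and 155118 in the mutant knock-in, a log2 fold change of 12.29, SE 0.22, adjusted p 3.32e-11. The knockout samples were also below the senescent control (49.5 and 59.9 CPM), so some METTL3 RNA remained there. The wild type knock-in had 59767 and 60670 CPM. The mutant knock-in therefore carried more METTL3 RNA than the wild type one, by log2 1.19, SE 0.14, adjusted p 9.65e-04, and the mutation and the amount of METTL3 cannot be told apart wherever these groups are compared. Reads of the cell's own METTL3 and of the introduced gene were not counted apart. METTL14 lay at 30.7 and 31.3 CPM in the knockout and 30.3 and 30.98 in the mutant knock-in, a difference of log2 -0.02, SE 0.14, adjusted p 0.938.

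HRAS, 1 of the RAS genes, was lower in the mutant knock-in, at 31.3 and 24.9 CPM against 43.1 and 41.3 in the knockout (log2 -0.59, SE 0.11, adjusted p 9.73e-04). The mutant samples lay below both knockout samples, below the wild type knock-in (49.9 and 45.3 CPM) and below the senescent control (63.9 and 64.1 CPM). Whether the HRAS level had a part in any change described below was not tested.

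Total counts were 16335277 and 18253194 in the knockout and 16911841 and 16401466 in the mutant knock-in, and 14998709 and 14068381 of the mutant's counts belonged to genes other than METTL3. More genes had a count in the mutant knock-in (25265 and 25582) than in the knockout (22663 and 22713), although fewer counts were left for them. Of the fibroblast markers, 12 of 12 were detected in all 4 samples. Their summed level was 11362 and 11804 in the knockout and 7315 and 6583 in the mutant knock-in (CPM before TMM scaling). Most of these counts were those of VIM, COL1A1 and COL1A2. Of the 12 markers, 8 were called lower, 3 were not called and 1, LUM, was called higher (505 and 649 against 900 and 855 counts). Leukocyte markers summed to 84.4 and 82.2 against 190.6 and 199.5, mostly CD68, with CD3E, MS4A1 and TYROBP at 0 in all 4 samples. PTPRC, a leukocyte phosphatase, nonetheless went from 2 and 6 counts to 49 and 93. Epithelial markers summed to 44.3 and 42.5 against 26.0 and 30.4 (KRT5, SFTPC and SCGB1A1 at 0 in all 4), and endothelial markers to 31.0 and 33.5 against 33.9 and 36.3 (CLDN5 at 0 in all 4 and CDH5 at 1 count or less). Most endothelial counts were those of TEK (450 and 550 counts in the knockout, 378 and 356 in the mutant knock-in). TEK was called lower, a call lost with upper-quartile scaling, with DESeq2 and when any 1 of the 4 samples was left out. KDR went from 9 and 8 to 43 and 50 counts and ESAM from 14 and 24 to 55 and 56, both called higher. The part of these marker levels in the results below was not tested. In RNA from whole cultures, fewer cells of a kind and less RNA per cell cannot be told apart.

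A large share of the tested genes changed. Of 16916 genes tested, 8166 passed an adjusted p of 0.05 (48.3%), 4112 of them higher in the mutant knock-in (24.3%) and 4054 lower (24.0%). Rises were more often large: 1916 genes rose and 672 fell by at least 1 on the log2 scale. The median log2 change over all tested genes was 0.01, which is the reference for the medians of gene groups below.

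The direction went with the level of a gene. Of 2770 genes with a mean under 1 CPM over the 10 samples, 730 were higher and 89 lower, with a median of 0.53. Genes above 100 CPM showed the opposite split, with 442 higher and 1031 lower of 2401 and a median of -0.19. A gene of low level passes the count filter through the group in which it is highest, so this split is a description only, and the fitted fold of a gene with few or no knockout counts depends on the prior count of the model. Of 780 long intergenic noncoding RNAs, 186 were higher, close to the share of all genes, and 53 lower. They took 2.20% and 2.31% of the counts outside METTL3 in the knockout and 3.61% and 3.56% in the mutant knock-in. Antisense RNAs were higher in 145 and lower in 59 of 726 cases, and protein-coding genes higher in 3346 and lower in 3736 of 13395. No strand setting of the counting is stated, so reads of antisense and sense partners may be mixed.

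**Figure D1:**
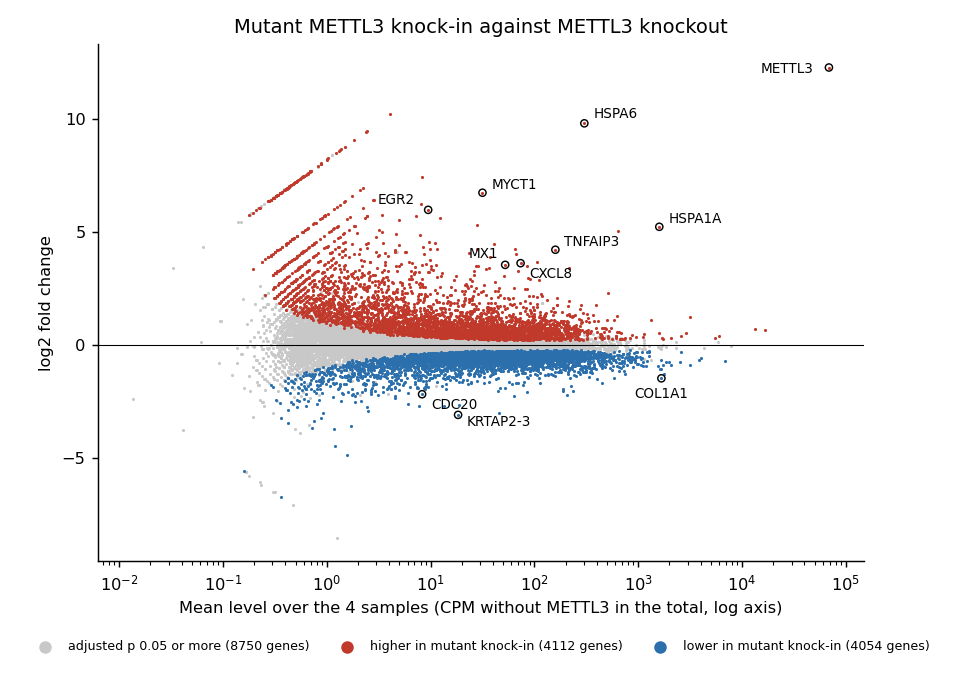
Each point is 1 of the 16916 genes tested, by its mean CPM over the 4 samples (log axis) and its log2 fold change in the mutant knock-in against the METTL3 knockout. Red points (4112) are higher and blue points (4054) lower at an adjusted p under 0.05. Most of the large rises lie at low and middle levels, while METTL3, HSPA6 and HSPA1A are among the abundant genes that rose.

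The largest rise among genes of at least 5 CPM, METTL3 apart, was that of HSPA6, a chaperone of the HSP70 family that is made almost only under stress. It had 0.731 and 0.599 CPM in the knockout and 534 and 677 in the mutant knock-in (log2 9.82, SE 0.19, adjusted p 2.04e-11). Its senescent control level was 0.517 and 0.382 CPM, so the knockout and the senescent control were both under 1 CPM and the mutant stood far above either. The next in order was MYCT1, from 0.731 and 0.436 to 55.8 and 69.5 CPM (log2 6.75, SE 0.20, adjusted p 5.59e-10). ALOXE3, a lipoxygenase of the skin barrier, followed with 0.122 and 0.272 against 15.2 and 16.6 CPM (log2 6.26, SE 0.31, adjusted p 5.65e-08). EGR2, an early growth response factor, had 0.122 and 0.436 against 16.3 and 21.1 CPM (log2 5.99, SE 0.33, adjusted p 1.19e-07). The mutant samples were above both knockout samples for each of these genes by more than the gap between replicates.

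Also among the 10 largest rises were ARC, a neuronal immediate early gene (log2 5.74), the antisense RNA SUGCT-AS1 (log2 5.32), HSPA1A and HSPA1B, and MAP2, a microtubule-associated protein of neurons (log2 4.88). In the knockout ARC, SUGCT-AS1 and MAP2 lay at 0.365 and 0.163, 1.16 and 1.53 and 0.487 and 0.545 CPM, respectively, so several large folds start from a handful of counts. None of the 10 overlapped between the groups, which the naming rule required.

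Falls were smaller. KRTAP2-3, a keratin-associated protein, fell from 28.7 and 37.2 CPM in the knockout to 4.07 and 3.66 in the mutant knock-in (log2 -3.09, SE 0.24, adjusted p 3.84e-06), and KRTAP1-5 of the same family fell by 2.64; counts within such families are uncertain. GMNC, a geminin relative known from multiciliated cells, went from 22.4 and 24.1 to 3.7 and 3.46 CPM (log2 -2.70, SE 0.26, adjusted p 1.95e-05). B3GALT2, a galactosyltransferase, went from 13.6 and 12.9 to 1.88 and 2.26 CPM (log2 -2.68, SE 0.22, adjusted p 1.87e-06). In the senescent control B3GALT2 had only 0.517 and 1.002 CPM, so the mutant samples lay between that group and the knockout.

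Further down the order came KRT19, an epithelial keratin (log2 -2.60), MEST, an imprinted gene, CDC20 and GTSE1 of the mitotic list, and CNN1, the contractile protein calponin. MEST stood at 327 and 356 CPM in the knockout and 83.5 and 65.6 in the mutant knock-in (log2 -2.19, SE 0.15, adjusted p 6.58e-07). Both mutant samples were also below the senescent control (123 and 163 CPM).

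**Figure D2:**
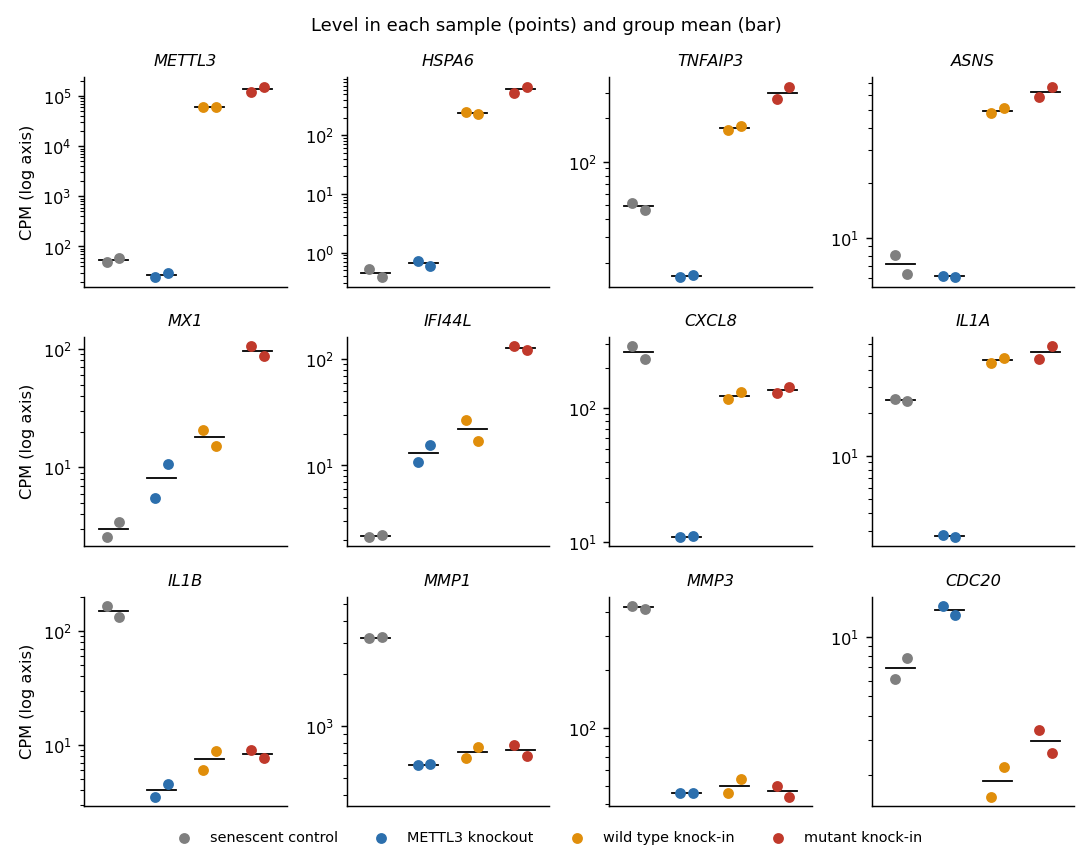
CPM of 12 genes on log axes in each sample of the senescent control, METTL3 knockout, wild type knock-in and mutant knock-in, with the group mean as a bar. HSPA6, TNFAIP3, ASNS, MX1, IFI44L, CXCL8 and IL1A were higher in both mutant samples than in both knockout samples, CDC20 was lower, and MMP3 was not distinguishable.

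Heat shock chaperones rose as a group. Of 20 tested, 18 rose and 0 fell, with a median log2 change of 0.96. HSPA1A, the main inducible HSP70, stood at 81.2 and 83.5 CPM in the knockout and 2899 and 3325 in the mutant knock-in (log2 5.24, SE 0.12, adjusted p 4.81e-11). HSPA1B, its near-identical neighbour, stood at 37.5 and 37.2 against 1115 and 1341 CPM (log2 5.04, SE 0.13, adjusted p 2.23e-10); reads may be divided between these copies in a way that cannot be checked. Smaller rises were those of the HSP40 DNAJB1 (log2 2.32), the HSP110 HSPH1 (log2 1.78), the small heat shock protein CRYAB (log2 1.59), the mitochondrial chaperonin HSPD1 (log2 1.00) and the cytosolic HSP90AA1 (log2 1.10). HSPA8, the constitutive HSP70, and DNAJB4 were the 2 that did not pass the test, at 0.14 and 0.34.

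The chaperones of the endoplasmic reticulum did not follow. Of 20 genes of that compartment and of the unfolded protein response, 3 were higher and 9 lower, with a median of -0.29. ERN1, the sensor kinase IRE1, rose from 23.1 and 25.5 to 125 and 150.4 CPM (log2 2.5, SE 0.11, adjusted p 2.09e-08). PDIA3, a disulfide isomerase, fell by 0.61, and HSP90B1, the reticulum's HSP90, by 0.59; the call of HSP90B1 (adjusted p 0.00863) was lost without knockout replicate 2 and without mutant replicate 2, with an adjusted p up to 0.0738.

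Genes of the ATF4 response, by which cells react to amino acid shortage and other stress, rose in 19 of 22 cases and fell in 0, with a median of 1.63. ASNS, asparagine synthetase, went from 6.21 and 6.1 CPM in the knockout to 58.9 and 66.95 in the mutant knock-in (log2 3.35, SE 0.14, adjusted p 1.25e-08). TRIB3, a pseudokinase induced by ATF4, went from 11.4 and 10.3 to 83.8 and 99.2 CPM (log2 3.08, SE 0.12, adjusted p 8.07e-09). PSAT1, of serine synthesis, had 14.4 and 13.95 against 70.8 and 78.99 CPM (log2 2.40, SE 0.10, adjusted p 9.15e-09). For all 3 the knockout samples were close to each other and to the senescent control (8.1 and 6.35 CPM for ASNS), and the mutant samples lay apart.

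DDIT3, the stress factor CHOP, rose by 2.38 and SLC7A11, the cystine transporter, by 1.46, with an adjusted p of 0.0122 that reached 0.0771 over its alternatives (without knockout replicate 1 and with no low-count filter it missed the threshold). ALDH1L2, MTHFD2 and STC2 were the 3 that did not pass, at -0.22, -0.12 and -0.02. Aminoacyl-tRNA synthetases, several of which ATF4 induces, went both ways, with 9 higher and 5 lower of 19. AARS1 rose by 1.78 and CARS1 by 1.06, while FARSB fell by 0.97.

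Of 20 immediate early genes, 11 rose and 3 fell (1 without knockout replicate 1), with a median of 0.65. ATF3, a stress-induced repressor, stood at 3.53 and 3.43 CPM in the knockout and 71.2 and 85.5 in the mutant knock-in (log2 4.49, SE 0.18, adjusted p 1.57e-08). EGR1 stood at 38.3 and 35.2 against 358 and 432 CPM (log2 3.43, SE 0.15, adjusted p 2.45e-08). KLF2 moved the other way, from 39.9 and 42.8 to 21.2 and 25.1 CPM (log2 -0.84, SE 0.14, adjusted p 5.46e-04), and FOS (-0.13) and MYC (-0.13) did not pass the test. RAS-ERK output genes showed no common direction, with 6 higher and 3 lower of 17 and a median of -0.03. Their called members made up 52.9%, against 48.3% of all genes tested. MAFF rose by 2.40, while the cyclin CCND1 fell by 0.87 and the receptor EPHA4 by 0.83.

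All 19 NF-kB targets tested were higher in the mutant knock-in, with a median of 2.17. TNFAIP3, the ubiquitin-editing inhibitor of NF-kB, stood at 15.9 and 16.5 CPM in the knockout and 273 and 332 in the mutant knock-in (log2 4.22, SE 0.12, adjusted p 5.41e-10). TRAF1, a signal adaptor, had 2.56 and 2.72 against 40.1 and 48.5 CPM (log2 4.06, SE 0.15, adjusted p 3.94e-09). VCAM1, an adhesion molecule, had 1.28 and 1.36 against 15.1 and 15.6 CPM (log2 3.53, SE 0.21, adjusted p 1.63e-07). For these 3 genes the mutant samples were above both knockout samples and above the senescent control, where TNFAIP3 stood at 51.97 and 46.6 CPM. The smallest rise of the list was NFKBIZ, at 0.49, and the NF-kB subunits NFKB1 and RELB rose by 2.17 and 2.64.

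Of 21 SASP cytokines and chemokines tested, 15 were higher and 2 lower (1 lower without mutant replicate 2), with a median of 2.26. Of 26 in the table, 5 did not pass the count filter. Chemokines that attract neutrophils were among the largest rises. CXCL1 had 0.183 and 0.163 CPM in the knockout and 5.89 and 6.38 in the mutant knock-in (log2 5.10, SE 0.42, adjusted p 2.14e-06). CXCL8 had 10.96 and 11.1 against 129 and 143 CPM (log2 3.63, SE 0.14, adjusted p 7.46e-09). CXCL2 had 0.0609 and 0.327 against 4.01 and 5.12 CPM (log2 4.46, SE 0.43, adjusted p 6.54e-06), and CCL20, which attracts cells through CCR6, 0.183 and 0.0545 against 2.26 and 2.73 (log2 4.35, SE 0.55, adjusted p 7.78e-05). CXCL1, CXCL2 and CCL20 had 4 to 7 counts over both knockout samples, so their folds are imprecise.

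Against the senescent control, 12 of these 21 genes were lower in the mutant knock-in, 6 higher and 3 not called, with a median of -0.90. Between these groups 53.1% of all tested genes were called. CXCL8 reached 129 and 143 CPM against 289.5 and 233 in the senescent control, a difference of log2 -0.94, SE 0.12, adjusted p 4.23e-05. IL1A, a membrane-bound alarm cytokine, rose from 2.8 and 2.72 to 47.6 and 58.04 CPM (log2 4.25, SE 0.15, adjusted p 3.94e-09) and exceeded the senescent control (24.9 and 24.1 CPM) by log2 1.11, SE 0.12, adjusted p 1.08e-05. IL1B, its secreted relative, rose only from 3.53 and 4.58 to 9.02 and 7.65 CPM (log2 1.03, SE 0.22, adjusted p 0.00249), against 165 and 133 in the senescent control, a difference of log2 -4.16, SE 0.18, adjusted p 3.21e-08. IL6 rose from 3.04 and 2.29 to 12.2 and 13.3 CPM (log2 2.26, SE 0.19, adjusted p 2.86e-06), and its level did not differ detectably from the 13.9 and 13.9 CPM of the senescent control (log2 -0.13, SE 0.16, adjusted p 0.532).

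Some SASP genes were not among the risers. CCL2, a monocyte attractant, stood at 11.1 and 13.7 CPM in the knockout and 10.03 and 8.24 in the mutant knock-in (log2 -0.44, SE 0.17, adjusted p 0.051); the difference passed the threshold in 7 of 13 other fits. CSF2 lay near the counting limit (0.0609 and 0.272 against 0.313 and 0.332 CPM, log2 0.88, SE 0.75, adjusted p 0.36). CXCL12, a homing chemokine of fibroblasts, fell from 20.9 and 22.2 to 6.64 and 6.52 CPM (log2 -1.71, SE 0.12, adjusted p 8.08e-07), and IL11 fell by 0.56.

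The secreted proteases and their regulators had no common direction. Of 14 tested, 4 rose and 4 fell (57.1% called, against 48.3% of all genes tested), with a median of -0.06. MMP1, an interstitial collagenase, stood at 592 and 603 CPM in the knockout and 777 and 673 in the mutant knock-in (log2 0.28, SE 0.10, adjusted p 0.0398), against 3194 and 3231 in the senescent control; its call was lost in 5 of 13 other fits. MMP3, a stromelysin, had 45.7 and 45.7 against 49.6 and 43.8 CPM (log2 0.03, SE 0.11, adjusted p 0.834) and 427 and 414 in the senescent control. The knockout and mutant samples overlapped for MMP3 and lay close together for MMP1, and both groups were far below the senescent control. The inhibitors TIMP3 and TIMP2 fell by 1.46 and 1.02, and MMP10 rose from 0.365 and 0.327 to 1.32 and 1.06 CPM (log2 1.77, SE 0.42, adjusted p 0.0043).

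Growth factors, their binding proteins and receptors were split, with 11 higher (7 without knockout replicate 1) and 8 lower of 26 and a median of 0.02. GDF15, a stress cytokine, rose from 72.3 and 74.3 to 227 and 231 CPM (log2 1.64, SE 0.13, adjusted p 1.60e-06), and AREG, a ligand of the epidermal growth factor receptor, from 2.44 and 2.78 to 7.65 and 6.58 CPM (log2 1.44, SE 0.17, adjusted p 3.69e-05). IGFBP3, which binds insulin-like growth factors, fell from 97.4 and 112 to 31.9 and 34.5 CPM (log2 -1.66, SE 0.18, adjusted p 3.39e-05).

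Interferon-stimulated genes, the products of which block virus growth, rose almost without exception. Of 44 tested, 41 rose and 0 fell, with a median of 2.24. MX2, a dynamin-like antiviral protein, stood at 0.731 and 1.09 CPM in the knockout and 21.2 and 20.8 in the mutant knock-in (log2 4.51, SE 0.25, adjusted p 1.16e-07). Its relative MX1 stood at 5.54 and 10.7 against 105 and 87.9 CPM (log2 3.55, SE 0.25, adjusted p 3.08e-06). OASL and OAS1, of the 2-5A synthetase family, had 0.183 and 0.381 and 0.913 and 2.02 CPM in the knockout and 5.14 and 8.31 and 14.9 and 12.9 in the mutant knock-in (log2 4.52 and log2 3.22).

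In each of these 4 genes both mutant samples were above both knockout samples, although the knockout samples themselves lay apart. HERC5, a ligase of the ubiquitin-like ISG15, had 1.46 and 0.817 against 22.1 and 21.3 CPM (log2 4.26, SE 0.24, adjusted p 1.46e-07), and IFI44L had 10.8 and 15.6 against 132 and 122 CPM (log2 3.26, SE 0.21, adjusted p 1.68e-06). STAT2 and IRF9, of the ISGF3 complex, rose by 0.77 and 1.5. GBP1 (-0.16), TRIM22 (0.16) and IFITM2 (0.24) were the members that did not pass the test. In the senescent control MX1 lay at 2.58 and 3.44 CPM and IFI44L at 2.12 and 2.2, below both knockout samples, and against that group 43 of the 44 genes were higher in the mutant knock-in.

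**Figure D3:**
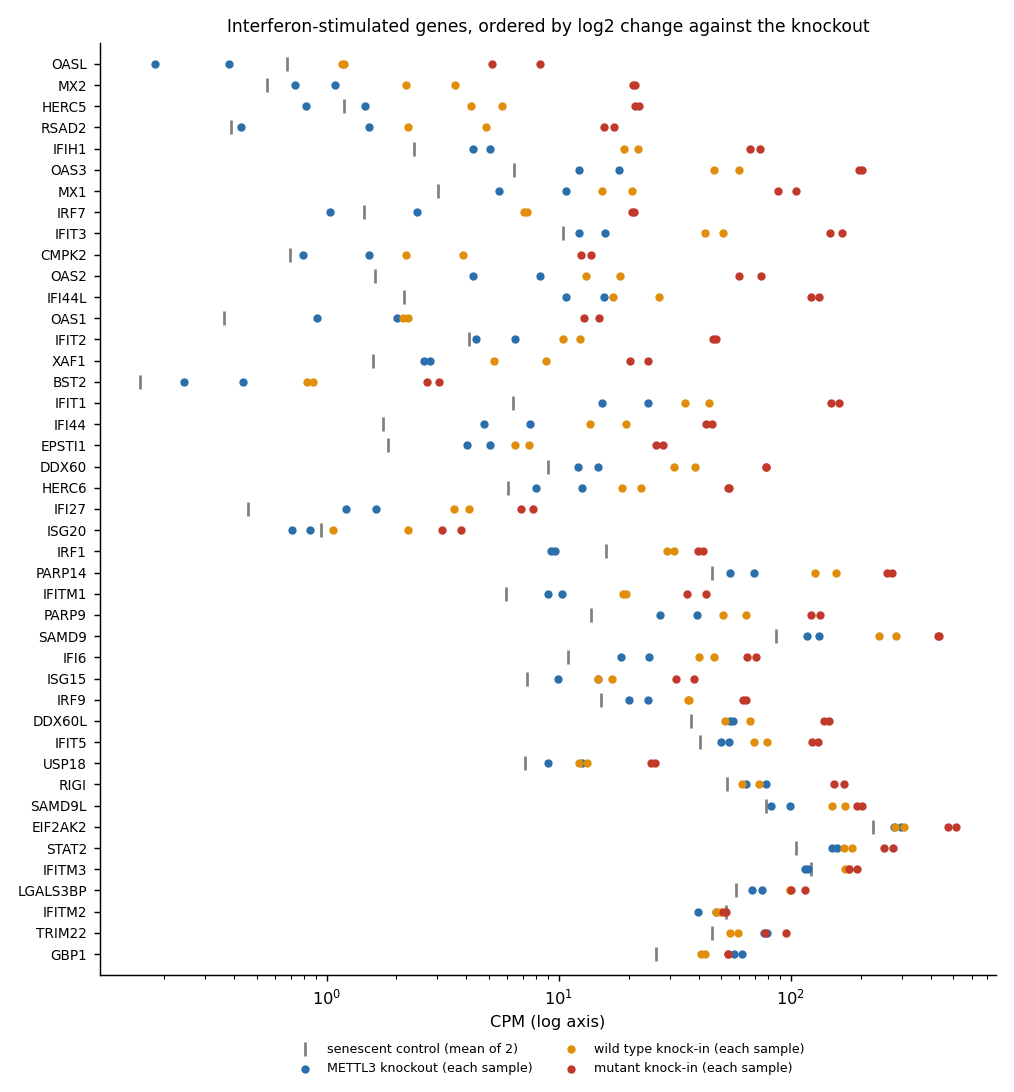
CPM (log axis) of 43 of the 44 interferon-stimulated genes tested, in each knockout, wild type knock-in and mutant knock-in sample (points) and as the senescent control mean (vertical tick), ordered by log2 change against the knockout. Both mutant samples lay to the right of both knockout samples except at TRIM22 and GBP1, which with IFITM2 did not pass the test.

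Genes of mitosis fell. Of 70 G2 and M phase genes, 56 were lower in the mutant knock-in than in the knockout and 1 was higher, with a median of -1.17. CDC20, an activator of the anaphase-promoting complex, stood at 14.2 and 12.9 CPM in the knockout and 3.38 and 2.59 in the mutant knock-in (log2 -2.18, SE 0.18, adjusted p 2.64e-06). GTSE1, a microtubule-binding protein of G2 phase, had 11.1 and 8.72 against 1.82 and 2.79 CPM (log2 -2.11, SE 0.22, adjusted p 1.08e-05), and CDCA3, a mitotic entry factor, 4.81 and 3.81 against 1.07 and 0.864 (log2 -2.14, SE 0.27, adjusted p 4.40e-05). Both knockout samples were above the senescent control for CDC20 (6.09 and 7.78 CPM) and both mutant samples below it. The list as a whole did not lie below that group. Against the senescent control, 13 of the 70 genes were higher in the mutant knock-in, 18 lower and 39 not called (median -0.12). In the knockout, 62 were higher than in the senescent control (median 1.09). Between those 2 groups 2624 of all 16916 tested genes were called, 1217 of them higher in the knockout.

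The single riser was KIF15, a spindle kinesin, from 4.45 and 4.2 to 5.83 and 8.24 CPM (log2 0.70, SE 0.24, adjusted p 0.0291); its call was lost in 4 of 13 other fits, with DESeq2 and without knockout replicate 1, knockout replicate 2 or mutant replicate 2 (adjusted p up to 0.333). S phase genes fell in 27 and rose in 7 of 44 cases, with a median of -0.65. The 7 rises became 4 without knockout replicate 1, 2 without knockout replicate 2 and 3 without mutant replicate 2. TK1, thymidine kinase, went from 8.34 and 6.92 to 1.63 and 1.33 CPM (log2 -2.35, SE 0.20, adjusted p 2.51e-06), RRM2, a ribonucleotide reductase subunit, from 38.6 and 31.9 to 10.7 and 10.3 (log2 -1.74, SE 0.12, adjusted p 5.31e-07), and CDC7, a replication kinase, fell by 1.72. CHAF1B, a histone chaperone subunit, rose by 1.2. Among 13 histone genes that depend on replication, 9 were lower and 0 higher, with a median of -1.12 and H1-3 lowest (8.16 and 7.74 against 2.19 and 1.8 CPM, log2 -1.99, SE 0.19, adjusted p 6.68e-06); their near-identical copies make these values uncertain.

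Arrest and lamina genes fell in 18 and rose in 2 of 24 cases (1 without knockout replicate 2 or mutant replicate 2), with a median of -0.57. LMNB1, lamin B1, stood at 8.65 and 7.41 CPM in the knockout and 3.7 and 2.79 in the mutant knock-in (log2 -1.30, SE 0.17, adjusted p 7.60e-05), near the senescent control (3.1 and 2.82 CPM). CDKN1A, the kinase inhibitor p21, fell from 781 and 759 to 551 and 473 CPM (log2 -0.59, SE 0.10, adjusted p 4.60e-04), and CDKN2A, the locus of p16, was 39.5 and 40.8 against 39.04 and 40.02 CPM (log2 -0.02, SE 0.10, adjusted p 0.863). CDKN2B, the inhibitor p15 next to it, rose from 46.7 and 52.5 to 129 and 139 CPM (log2 1.43, SE 0.10, adjusted p 7.40e-07). Thus the 3 inhibitors showed a fall, no detectable difference and a rise. Of 26 p53 targets 9 rose and 6 fell (57.7% called, against 48.3% of all genes tested). GADD45A, a stress sensor of DNA damage, was up by 2.18, the death factor BBC3 up by 1.12 and CCNG1, cyclin G1, down at -0.94.

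Matrix and contractile genes fell in 19 and rose in 2 of 30 cases, with a median of -0.53. CNN1 stood at 71.8 and 73.4 CPM in the knockout and 19.7 and 15.4 in the mutant knock-in (log2 -2.04, SE 0.14, adjusted p 6.99e-07). ACTA2, smooth muscle actin, had 352 and 347 against 102 and 99.1 CPM (log2 -1.80, SE 0.11, adjusted p 2.89e-07), and COL1A1, a chain of type I collagen, 2324 and 2596 against 1029 and 744 (log2 -1.47, SE 0.20, adjusted p 1.81e-04). POSTN, the matrix protein periostin, went against the rest, from 41.9 and 45.2 to 94.3 and 87.2 CPM (log2 1.06, SE 0.13, adjusted p 3.56e-05). Several of these genes are also fibroblast markers, whose summed level was lower in the mutant knock-in as given above, and the part of that in these values was not tested. YAP targets were split, with 8 higher (5 when any 1 of the 4 samples was left out) and 9 lower of 24: NUAK2 rose by 1.73 and CCN1 fell by 1.17.

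Many genes that make protein, degrade it and supply energy fell by modest amounts. Of 61 cytosolic ribosomal protein genes 55 fell and 0 rose, with a median of -0.52. RPL24 was lowest, with 149 and 136 CPM in the knockout and 71.9 and 61.6 in the mutant knock-in (log2 -1.09, SE 0.10, adjusted p 4.17e-06). Of 30 respiratory chain genes, 26 were lower (median -0.58), with UQCRB of complex III at 84.3 and 81.3 against 46.6 and 45.3 CPM (log2 -0.85, SE 0.09, adjusted p 1.46e-05). Proteasome genes fell in 21 of 30 cases (13 without knockout replicate 1; median -0.37), with the catalytic subunit PSMB2 down at -0.81. None of these 3 groups had a riser; among all genes above 100 CPM, falls were more frequent than rises, as given above.

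Of 24 cholesterol synthesis genes, 18 were lower and 0 higher (median -0.50), for example MVD (log2 -1.04) and IDI1 (log2 -0.93). Glycolysis genes fell in 14 and rose in 1 of 20 cases (0 without knockout replicate 1, knockout replicate 2 or mutant replicate 2), with a median of -0.47. LDHA, lactate dehydrogenase, went from 487 and 461 to 236 and 220.5 CPM (log2 -1.05, SE 0.09, adjusted p 3.74e-06). NRF2 targets rose in 9 and fell in 3 of 21 cases (57.1% called, against 48.3% of all genes tested). HMOX1, heme oxygenase, went from 25.03 and 26.98 to 147 and 141 CPM (log2 2.47, SE 0.12, adjusted p 4.62e-08), and TXN, thioredoxin, was lower (log2 -0.71). Lysosome and autophagy genes rose in 9 and fell in 3 of 27 cases (44.4% called, against 48.3% of all genes tested), with a median of 0.14. UVRAG was up by 1.46, NPC1 by 1.03 and GLB1, lysosomal beta-galactosidase, down at -0.54.

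**Figure D4:**
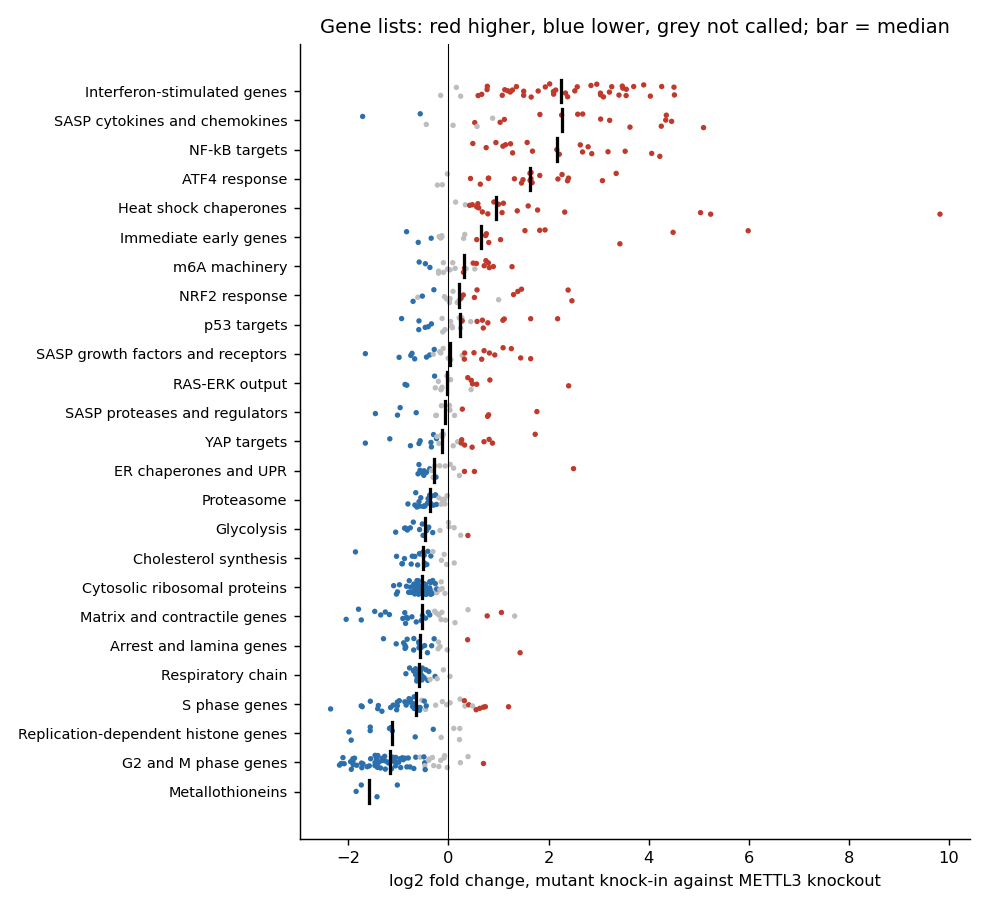
Log2 fold change in the mutant knock-in against the METTL3 knockout for each tested gene (points, red higher, blue lower, grey not called) of 25 gene lists, with the list median as a black bar and METTL3 itself left out. Interferon-stimulated genes, SASP cytokines, NF-kB targets, the ATF4 response and heat shock chaperones lay to the right (medians from 0.96 to 2.26), and G2 and M phase genes, histones and metallothioneins to the left (-1.12 to -1.58).

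In the m6A machinery other than METTL3, 10 of 23 genes rose and 3 fell (1 without knockout replicate 1 or mutant replicate 2), with a median of 0.30. Called members made up 56.5% of this list, against 48.3% of all genes tested. YTHDC1, the nuclear reader, rose from 76 and 69.6 to 169 and 182 CPM (log2 1.27, SE 0.11, adjusted p 3.08e-06), and YTHDF2, the reader that promotes decay, from 93.7 and 103 to 181 and 185 CPM (log2 0.90, SE 0.09, adjusted p 1.19e-05). RBM15, which brings the writer to RNA, rose by 0.82, and WTAP, the writer's scaffold, by 0.80. IGF2BP3, a binder of methylated RNA, fell by 0.58 (adjusted p 0.00917, and 0.0688 without mutant replicate 2). The eraser ALKBH5 fell by 0.46, and FTO (-0.20) did not pass the test. Splicing factors rose in 5 and fell in 8 of 30 cases (43.3% called, against 48.3% of all genes tested), with HNRNPF up by 0.71. Without knockout replicate 1 there were 3 rises and 4 falls, and the rises numbered 2 without knockout replicate 2 and 3 without mutant replicate 2.

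The direct comparison of the mutant with the wild type knock-in shows which levels differed between the knock-ins. It called 1950 of 16916 genes (11.5%), 942 higher in the mutant (5.57%) and 1008 lower (5.96%), of which 304 and 20 differed by at least 1 on the log2 scale. Of the interferon-stimulated genes, 38 of 44 were higher in the mutant and 0 lower, with a median of 1.21. MX2 had 3.56 and 2.19 CPM in the wild type knock-in and 21.2 and 20.8 in the mutant (log2 2.89, SE 0.21, adjusted p 4.56e-05), OAS1 2.12 and 2.24 against 14.9 and 12.9 (log2 2.66, SE 0.24, adjusted p 1.65e-04), and IFI44L 26.9 and 17.1 against 132 and 122 (log2 2.54, SE 0.20, adjusted p 2.07e-04). The mutant samples were above both wild type samples in each case, which the naming rule required. The wild type samples of OAS1 lay close to the upper knockout sample. MX1 differed by log2 2.43, SE 0.23, adjusted p 5.88e-04, and ERBB4, a receptor tyrosine kinase, by log2 2.42, SE 0.24, adjusted p 2.68e-04.

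Leaving out mutant replicate 2 took the calls of this comparison from 1950 to 120, leaving out wild type replicate 2 to 151, mutant replicate 1 to 564 and wild type replicate 1 to 1018; the interferon-stimulated genes called higher ranged from 18 to 36 of 44 over these. The balance of directions also moved with the method. Of the calls, 48.3% were higher in the mutant here, 58.4% with upper-quartile scaling and 37.6% with DESeq2. DESeq2 differs in its test as well as its scaling, and it gave 3936 genes no adjusted p.

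Heat shock chaperones were higher in the mutant than in the wild type in 9 of 20 cases (5 or 6 when a sample was left out, 17 without the control group) and lower in 0, with HSPA6 at 246 and 235 CPM in the wild type and 534 and 677 in the mutant (log2 1.33, SE 0.11, adjusted p 9.99e-05) and HSPA1A at 1204 and 1211 against 2899 and 3325 (log2 1.37, SE 0.10, adjusted p 4.56e-05). NF-kB targets were higher in 8 of 19 (1 to 5 when a sample was left out), among them TNFAIP3 (log2 0.82, SE 0.10, adjusted p 0.00125), and ATF4 response genes in 5 of 22 (1 to 4, and 10 without the control group). SASP cytokines were higher in 5 of 21 (0 to 3 when a sample was left out). IL6 was among these, at 5.37 and 6.77 CPM in the wild type and 12.2 and 13.3 in the mutant (log2 1.06, SE 0.17, adjusted p 0.00438), while CXCL8 (log2 0.13, SE 0.12, adjusted p 0.508) and IL1A (log2 0.19, SE 0.11, adjusted p 0.312) did not pass the test. EGR2 (log2 0.18, SE 0.18, adjusted p 0.572) and ASNS (log2 0.35, SE 0.12, adjusted p 0.0718) did not pass it either.

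Some genes separated the knock-ins in the other direction. ATXN7L3B was lowest in the mutant, with 28.9 and 26.7 CPM against 66.02 and 67.1 in the wild type and 86.9 and 86.5 in the knockout (log2 -1.26, SE 0.09, adjusted p 4.56e-05). SLC16A6, a transporter, had 158 and 138 CPM in the mutant and 295 and 308 in the wild type (log2 -1.03, SE 0.11, adjusted p 4.11e-04), and its mutant level overlapped that of the knockout (139.8 and 153 CPM, log2 0.02, SE 0.11, adjusted p 0.901). The methyltransferase gene INMT was likewise higher in the wild type than in the mutant and the knockout, with 7.77 and 8.04 CPM against 16.7 and 16.3 in the wild type and 8.83 and 8.77 in the knockout (log2 -1.06, SE 0.16, adjusted p 0.00355). CDKN1A was also lower in the mutant than in the wild type, at log2 -0.81, SE 0.10, adjusted p 9.65e-04. NRF2 targets, of which more rose than fell against the knockout, were lower in the mutant than in the wild type in 10 of 21 cases and higher in 1. Their median was -0.36 (-0.40 to -0.34 when a sample was left out), but the number called lower was smaller whenever a sample was left out. Ribosomal protein genes were lower in the mutant in 38 of 61 cases, respiratory chain genes in 18 of 30 and proteasome genes in 17 of 30, and these counts fell to 0, 1 and 1 at the lowest when a sample was left out. G2 and M phase genes were higher in the mutant than in the wild type in 18 of 70 cases and lower in 0 (0 to 11 higher when a sample was left out); CDC20 had 1.56 and 2.19 CPM in the wild type (log2 0.65, SE 0.24, adjusted p 0.103).

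Set side by side, the wild type and the mutant knock-in against the same knockout samples gave 32 and 41 of 44 interferon-stimulated genes higher (medians 1.00 and 2.24), 18 and 19 of 19 NF-kB targets (1.64 and 2.17), 19 and 19 of 22 ATF4 response genes (1.22 and 1.63) and 13 and 18 of 20 heat shock chaperones (0.51 and 0.96). G2 and M phase genes were lower in 68 and 56 of 70 cases (medians -1.62 and -1.17). The wild type comparison called 5582 of all 16916 genes (2953 higher, 2629 lower) and the mutant one 8166 (4112 higher, 4054 lower). Against the knockout, 2 interferon-stimulated genes and 1 ATF4 response gene were lower in the wild type knock-in, and 0 of either list in the mutant. Both sets of values rest on the same 2 knockout samples, and no test was made of their likeness.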

How the data were processed

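Total RNA of 10 samples in 5 groups of 2 was sequenced, and groups were taken from the sample titles. The authors deposited a table of whole-number counts, not normalized, with 1 row per Ensembl gene ID. Per the submitters' processing notes, Bowtie2 (no version named), RSEM 1.2.12 and the genome build hg19 were used, so the counts may be rounded RSEM estimates. The sources used here do not name the annotation, strand setting or handling of multiply mapped reads. Of 57736 gene IDs, 51959 were matched to a symbol through a table of current and older symbols.

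Counts were tested with edgeR 4.0.16 (limma 3.58.1, R 4.3.3): filterByExpr with a minimum count of 10 (16916 genes), TMM scaling, 1 coefficient per group over all 10 samples (5 residual degrees of freedom), the robust two-sided quasi-likelihood F test and Benjamini-Hochberg adjustment over all genes tested, with a threshold of 0.05. The METTL3 row was left out of library totals and scaling. Rose, fell, higher and lower, said of genes in a comparison, mean past this threshold. The SE is the log2 fold change divided by the root of its F statistic, and its dispersion is estimated over all 10 samples. Total counts ran from 16293975 to 23570266 per sample, which limits precision for genes of few counts. The code was tested on simulated data.

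The compared groups, the gene lists and the naming rule were chosen with earlier results of these data known. By that rule the text names METTL3, METTL14, the 10 largest rises and 10 largest falls among called genes with a symbol, a mean of at least 5 CPM and no overlap of groups, the 3 largest called changes of each list with the largest against the list's majority, the 5 largest each way between the knock-ins, and a fixed set of SASP, stress and arrest genes. Other list members given as examples, the lists of interferon ligands and sensors and of HLA class I genes, and the fits without the control group, with protein-coding genes only and of the mutant against the senescent control were chosen after their values were seen. Lists are described by counts and medians, with no set test. The alternatives tried were upper-quartile scaling, DESeq2 1.42.0, no low-count filter, METTL3 kept in totals, only the compared samples, no robust estimation, a replicate block and leaving out each sample. Some genes that the rule names are not reported here.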

Additional observations from a re-analysis of the deposited data

How the results depend on the processing

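In the mutant knock-in against the METTL3 knockout, the 8166 called genes became 5819 to 6737 when 1 sample was left out, 6866 with DESeq2, 8055 with upper-quartile scaling and 9857 with only the 4 samples compared. Among protein-coding genes alone, 443 were lower by at least 1 (log2). Some counts of group members also moved by over 1.5 times. Those that did so when 1 sample was left out are given with the groups. With only the 4 samples compared and without the control group alike, 14 p53 targets rose, 13 splicing factors fell, and 5 lysosome and autophagy genes, 5 RAS-ERK output genes and 5 m6A genes fell; matrix and contractile genes rose in 5 cases with only the 4 samples. The log2 change of METTL3 kept its direction and call in all 13 other fits. List medians had the other sign in 6 of 442 refits here and in 18 of 442 for the knock-ins compared.

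The mutant against wild type comparison depended more on the setting, and the cause was not tested. With no low-count filter it called 3064 genes, 1753 of them lower and 53 lower by at least 1. With only its 4 samples it called 4109 (1745 higher, 2364 lower, 34 lower by at least 1), and without the control group, whose 2 samples differ from each other more than the other pairs do, 4861 (2343 higher, 2518 lower, 479 higher by at least 1). DESeq2 called 585 higher, 119 of them by at least 1, and gave 3936 genes no adjusted p. Protein-coding genes alone gave 8 lower by at least 1. Leaving out 1 sample gave 120 to 1018 called genes, 90 to 472 higher, 30 to 546 lower, 53 to 234 higher by at least 1 and 5 to 27 lower by at least 1. With 1 sample left, a group is assumed to vary like the others.

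Samples of the knockout and the mutant knock-in with the same number did not deviate together (r = -0.12 across genes), so the numbers were not taken to pair them. With a replicate block 8068 genes were called against the knockout and 1750 between the knock-ins.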

Other observations

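The type I interferon gene IFNB1 had 0 counts in both knockout samples and 2 and 3 in the mutant knock-in, with 1 in each wild type knock-in sample. IFNA1 had 2 counts in mutant replicate 2 and 0 in the other samples, and IFNL1, IFNL2, IFNL3 and IFNG had 0 in all 10 samples. IFNE, a type I interferon of mucosal tissue, did not pass the test (log2 0.01). Of 16 tested genes for interferon ligands, receptors and RNA or DNA sensors, 7 rose (4 without knockout replicate 2 or mutant replicate 1) and 2 fell (1 when any 1 of the 4 samples was left out) in the mutant knock-in against the knockout. IFIH1, the sensor MDA5 of long double-stranded RNA, rose by 3.90 on the log2 scale, RIGI by 1.19, the DNA sensor CGAS by 0.89 and ADAR, which edits double-stranded RNA, by 0.75. The adaptor MAVS fell by 0.81 and the receptor subunit IFNAR1 by 0.31. Of 14 HLA class I presentation genes 5 rose and 0 fell, among them HLA-B (0.73) and the peptide transporter TAP1 (0.88). Close HLA copies make these counts uncertain. Called members made up 35.7% of the HLA class I list and 56.2% of the 16 ligand, receptor and sensor genes, against 48.3% of all genes tested.

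All 4 metallothionein genes that passed the count filter, of 10 in the table, fell. MT2A, a metal-binding protein, stood at 485.9 and 484.7 CPM in the knockout and 200.4 and 160.6 in the mutant knock-in, and MT1X and MT1E fell by 1.84 and 1.74 on the log2 scale.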
